A study of Mus musculus with 203 samples.

Results

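The interaction of house dust mite (HDM) exposure with cigarette smoke was examined in the airways of mice at 11 weeks. It was taken for each gene as the HDM difference in smoke less the HDM difference in air, (HDM.CS - PBS.CS) - (HDM.AIR - PBS.AIR), on the log2 scale. A value below 0 means that the combined exposure moved a gene less far up, or further down, than the sum of its 2 single exposures on that scale, and a value above 0 the reverse. The comparison used 40 of the 80 airway libraries at 11 weeks, in a series that also holds 80 parenchyma libraries at 11 weeks and 43 libraries of both tissues at 3 weeks, and 17548 of 43346 gene identifiers passed the filter on low counts. Among them, 2810 genes were called at an adjusted p under 0.05 (limma-voom), 1049 with an interaction above 0 and 1761 with an interaction below 0, which were 5.98% and 10.0% of the genes tested.

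The animals were female Balb/C mice, 18 to 20 weeks old at the end, and RNA was sequenced from dissected airways. The 4 groups were saline and room air (PBS.AIR), HDM and air (HDM.AIR), saline and smoke (PBS.CS) and HDM and smoke (HDM.CS), with 10 libraries in each. HDM was given on 5 days per week for 3 weeks and 3 times per week from week 4 to week 11, and smoke 2 times per day on 5 days per week for 8 weeks. None of these 40 libraries came from mice given dexamethasone (DEX). The labels do not say whether each library came from its own mouse or which airway and parenchyma libraries share one, so the tests measure the spread between libraries.

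HDM extract carries proteases and microbial products that act on the airway epithelium and on dendritic cells, and repeated exposure gives allergic inflammation with eosinophils, mucus and antibody production. Cigarette smoke acts on the same epithelium and on macrophages, and recruits monocytes and neutrophils. Club cells, the secretory cells of mouse airways, express the enzymes that metabolise inhaled chemicals, and lose part of this programme when the epithelium is injured.

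Total counts ranged from 23368647 to 40240733 per library. The first principal component of the 500 most variable genes held 68.7% of their variance and ordered the groups as PBS.AIR (mean -44.5 ± 6.74, SD, n = 10), PBS.CS (-29.1 ± 7.22), HDM.CS (24.8 ± 7.76) and HDM.AIR (48.8 ± 6.34). The combined exposure thus lay nearer to saline than HDM alone did. The 6 club cell markers, which airway epithelium expresses, summed to between 13179 and 77400 CPM (counts scaled to library size, with TMM factors) in every library, but 8 alveolar type II markers summed to between 7109 and 25789 CPM, so the dissected airways also held parenchyma. Cardiac muscle markers had group medians of 1978 CPM in PBS.AIR, 921 in PBS.CS, 493 in HDM.CS and 372 in HDM.AIR, and they moved with the group order. With the cardiac level as a covariate, 2230 of the 2810 calls were kept. In bulk tissue, fewer cells of a type and less RNA per cell cannot be told apart.

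The called genes had one predominant form, in which smoke alone moved a gene the same way as HDM alone but the combination moved it less than HDM alone. Both single differences were opposite in sign to the interaction for 1014 of the 1049 genes called above 0 and 1700 of the 1761 called below 0. Both single differences enter the interaction with a minus sign. Calling genes on it thus favours this pattern of signs, and disfavours single differences that share its sign. Neither direction held a called gene whose single differences both had the sign of the interaction, that is, a gene that the combination moved beyond the sum of 2 same-sign single exposures (0 of 2810 by limma-voom). There was 1 such gene among 2968 called by edgeR, 1 among 3379 called by DESeq2 and 1 among 5176 at an unadjusted p under 0.05 in limma-voom. Of the 1761 genes below 0, the fitted level of HDM.CS lay between PBS.CS and HDM.AIR for 1456. It lay beyond both single exposures for 6.25% and short of both for 6.42%, against 16.1% and 10.1% of all tested genes. Of the 1049 genes above 0, it lay between PBS.CS and HDM.AIR for 910, and across all tested genes this share was 42.8%.

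Genes below 0 had a median HDM difference of 1.2 in air and 0.41 in smoke (log2), and a median smoke difference of 0.34 in PBS and -0.27 in HDM. For genes above 0 these medians were -0.89, -0.27, -0.25 and 0.31. The single differences share libraries with the interaction, which favours signs opposite to it, so their signs are a description and were not tested. With an absolute interaction of at least 1 on the log2 scale added to the threshold, 757 genes remained, 1.15% of those tested above 0 and 3.17% below 0. All 2810 called genes had the same sign when the interaction was taken as a difference of mean CPM instead of log2 values. So did 16811 of all 17548 genes tested. The direction of the called genes thus did not depend on the log scale, but no test was run on mean CPM.

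**Figure D1:**
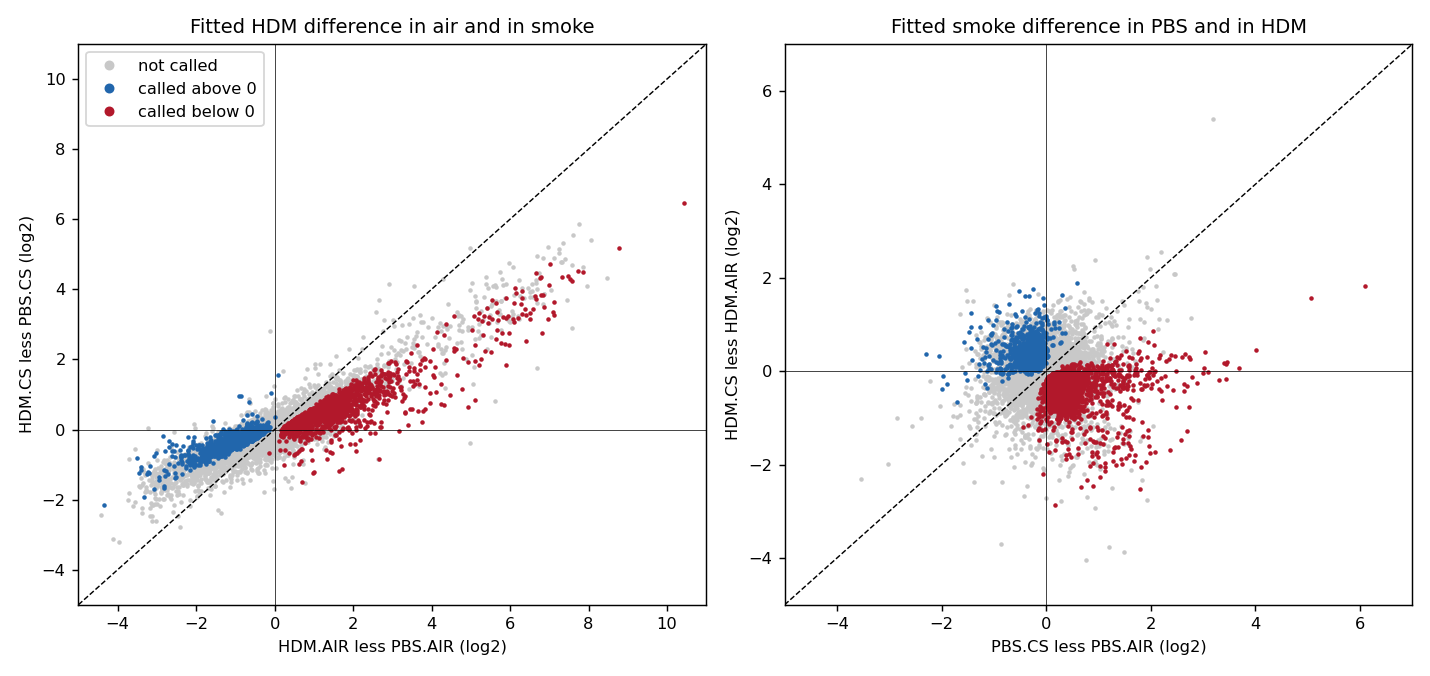
Each point is 1 of 17548 genes. The left panel plots the fitted HDM difference in air (x axis, log2) against that in smoke (y axis, log2), and the right panel the fitted smoke difference in PBS against that in HDM, with the dashed line at equal values. Called genes below 0 (red) lie below the line in the left panel and those above 0 (blue) above it, mostly with HDM differences of smaller size in smoke than in air.

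Genes were also picked on other libraries, so that the choice did not use the 40 libraries tested. HDM exposure for 3 weeks raised 2136 genes in the airways at least 2-fold and lowered 1746 at an adjusted p under 0.05 (12.6% and 10.3% of those tested). Of the raised genes, 2120 were tested here, and their median HDM difference at 11 weeks was 1.39 in air and 0.58 in smoke (log2). Their interaction was below 0 for 2006 and called below 0 for 1056 (49.8%, against 10.0% of all genes). The lowered genes mirrored this, with 519 of 1720 called above 0 (30.2%, against 5.98%).

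Genes picked for their response to smoke also had interactions mostly opposite in sign to that response, but not the predominant form above. Their median HDM differences in air were 2.22 for genes raised by smoke and -1.35 for genes lowered by it. By the medians below, the combination did not move them less than HDM alone. In PBS mice under DEX, smoke raised 0.608% of 17446 genes and lowered 0.298% at the same limits. The raised genes that were tested here had a median smoke difference of 1.67 in PBS but 0.12 in HDM, and 73 were called below 0 (69.5%, against 10.0% of all genes). The lowered genes had a median smoke difference of -1.09 in PBS and -0.51 in HDM, and 14 of 51 were called above 0 (27.5%, against 5.98%).

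Acute phase and neutrophil recruitment genes were mostly called below 0, against 10.0% of all genes tested. Saa3, an acute phase protein, ranged from 5.58 to 66.6 CPM (median 15) in PBS.AIR, from 137.1 to 807 (311) in HDM.AIR, from 91.3 to 303 (188.3) in PBS.CS and from 81.2 to 543 (317) in HDM.CS. Its 2 HDM groups overlapped, and every library of all 3 exposed groups lay above every PBS.AIR library. HDM gave a fitted 19.9-fold higher level in air and 1.64-fold in smoke, and the interaction was -3.60 ± 0.51 (log2, SE, adjusted p = 9e-06). Lcn2, a siderophore-binding protein of epithelium and neutrophils, had medians of 117.5, 1735, 723 and 1663 CPM in the same order of groups and an interaction of -2.93 ± 0.45 (adjusted p = 2.4e-05). Of 17 acute phase and IL-6 pathway genes tested, 9 were called below 0 and the other 8 were not called, with a list median of -0.90 against 0.00 for all genes.

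Vnn1, a pantetheinase, had the smallest p below 0. It ranged from 4.39 to 9.26 CPM (median 5.3) in PBS.AIR, from 36.1 to 140.1 (54.4) in HDM.AIR, from 31 to 111.8 (54.8) in PBS.CS and from 48.7 to 99 (61.8) in HDM.CS. Either exposure alone was thus followed by about the level of both together, with fitted single folds of 10.5 for HDM and 10.8 for smoke and an interaction of -3.27 ± 0.37 (adjusted p = 4.4e-07). Slpi, a secreted inhibitor of neutrophil elastase, had another form. It ranged from 13.9 to 39 CPM in PBS.AIR, from 1647 to 4030 in HDM.AIR, from 36.3 to 97.9 in PBS.CS and from 252 to 1813 in HDM.CS. Smoke alone was followed by 2.47-fold higher Slpi, and smoke in HDM mice by a level 0.319 times that of HDM.AIR, with an interaction of -2.95 ± 0.34 (adjusted p = 4.4e-07).

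Cxcl1, a neutrophil chemokine, ranged from 3.69 to 7.59 CPM (median 4.75) in PBS.AIR, from 10 to 46.5 (21.6) in HDM.AIR, from 17 to 68.5 (29) in PBS.CS and from 16.7 to 42.4 (24.4) in HDM.CS. The 3 exposed groups overlapped and none overlapped PBS.AIR. The interaction was -2.48 ± 0.39 (adjusted p = 3.2e-05). Of 15 neutrophil chemokines and growth factors tested, 9 were called below 0 (10.0% of all genes were) and 6 were not called, with a median of -1.54. Those called included Cxcl5 (-3.25), Cxcl2 (-2.28), Il1b (-1.54) and Tnf (-1.35), while Il17a (-2.04) and Csf3 (-1.51) were not.

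Tnip1, an inhibitor of NF-kB signalling that NF-kB itself induces, was tightly ordered. It ranged from 27.2 to 34.2 CPM in PBS.AIR, from 37.9 to 57.8 in PBS.CS, from 51 to 61.5 in HDM.CS and from 56 to 78.7 in HDM.AIR, with an interaction of -0.82 ± 0.10 (adjusted p = 8.5e-07). The promoters of Cxcl1, Il6 and Tnip1 are shown because each was called below 0 and holds a match to a kappa-B type motif. They were picked, after the matches were seen, from 10 promoters searched. The letters searched were GGGNNNTTCC on both strands in the 250 bases before each start, from RefSeq on GRCm38.p6, and capitals mark the matches, some of which overlap on opposite strands. The windows are chr5:90890995-90891244 (plus strand) for Cxcl1, chr5:30012864-30013113 (plus strand) for Il6 and chr11:54962941-54963190 (minus strand) for Tnip1.
Cxcl1: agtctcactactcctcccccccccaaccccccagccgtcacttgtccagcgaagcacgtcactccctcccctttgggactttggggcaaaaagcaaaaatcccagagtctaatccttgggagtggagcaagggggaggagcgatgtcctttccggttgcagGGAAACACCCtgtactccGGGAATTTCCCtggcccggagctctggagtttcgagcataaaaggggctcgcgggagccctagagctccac
Il6: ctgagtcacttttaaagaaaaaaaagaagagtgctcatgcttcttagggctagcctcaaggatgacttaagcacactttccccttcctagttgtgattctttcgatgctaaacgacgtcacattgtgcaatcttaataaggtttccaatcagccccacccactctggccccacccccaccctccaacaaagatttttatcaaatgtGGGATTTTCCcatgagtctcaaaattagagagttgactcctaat
Tnip1: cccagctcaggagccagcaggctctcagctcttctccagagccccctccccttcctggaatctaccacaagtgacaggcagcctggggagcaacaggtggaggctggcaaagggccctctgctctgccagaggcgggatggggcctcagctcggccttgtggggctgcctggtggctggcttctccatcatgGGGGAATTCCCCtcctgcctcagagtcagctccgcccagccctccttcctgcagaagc
Such a match was present in 8.92% of 1323 genes called below 0 with a promoter in the table, in 5.66% of 778 called above 0 and in 6.02% of 12618 tested genes, or 4.65% of all 32851 promoters. Cxcl1 had matches at 71, 70 and 89 bases before its start, Il6 at 44 and Tnip1 at 58 and 56. Cxcl2 and Nfkbie also held matches, and the promoters of Saa3, Lcn2, Slpi, Birc3 and Ccl22 held none in this window.

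A few inflammatory genes were lower after the combination than after either exposure alone. Ccl22, a chemokine of dendritic cells and macrophages that attracts CCR4-bearing T cells, ranged from 4.56 to 37.7 CPM (median 10.4) in PBS.AIR, from 24.9 to 88.8 (38.5) in HDM.AIR, from 18.7 to 62.2 (31.1) in PBS.CS and from 12.1 to 41.3 (21.8) in HDM.CS. All 4 ranges overlapped in part, and the interaction was -2.68 ± 0.40 (adjusted p = 1.6e-05). Il12b, the subunit shared by IL-12 and IL-23, had medians of 0.464, 1.59, 2.54 and 1.31 CPM in this order and an interaction of -2.83 ± 0.44 (adjusted p = 3.2e-05). Il6 was low throughout, with no library above 52 counts, and its medians of 0.217, 1.09, 0.584 and 0.409 CPM gave an interaction of -2.47 ± 0.37 (adjusted p = 1.7e-05). The amino acid transporter gene Slc6a20a (-1.75) and the sterol synthesis gene Cyp51 (-0.61) had this form too, though their fitted HDM differences in smoke were near 0 (-0.02 and -0.07).

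**Figure D2:**
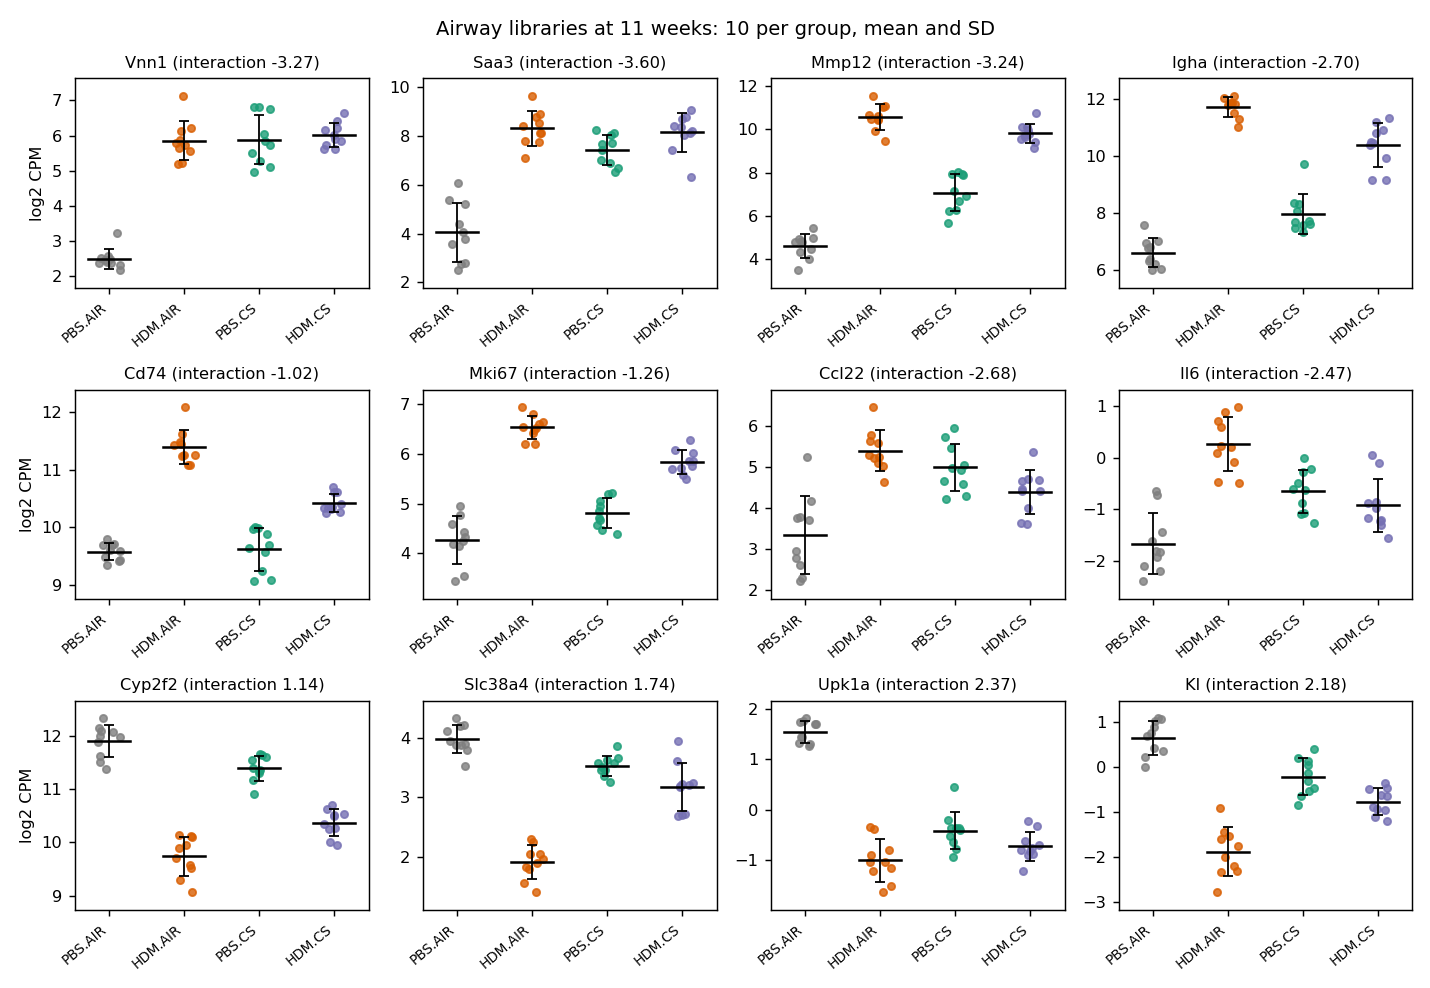
Log2 CPM of 12 genes in the 40 airway libraries, with 10 points per group, the mean as a bar and the SD as whiskers. Vnn1 is about level in the 3 exposed groups, Saa3 is higher in all 3 than in PBS.AIR, Ccl22 and Il6 are lower in HDM.CS than in HDM.AIR, and Cyp2f2, Slc38a4 and Kl are higher in HDM.CS than in HDM.AIR.

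Monocyte chemokine genes and those of lipid-laden macrophages were mostly called below 0, against 10.0% of all genes tested. Of 18 monocyte chemokines and receptors, 13 were called below 0, with a median of -1.16, among them Ccl3 (-2.43), Ccl2 (-1.81) and the fractalkine receptor gene Cx3cr1 (-1.79 ± 0.26, adjusted p = 1.5e-05). Ccr2 (-0.20), the receptor of classical monocytes, and Cx3cl1 (0.21) were not called. Of 21 genes of lipid-laden macrophages and emphysema, 13 were called below 0 and Cd36 (0.33) above 0, with a median of -1.03. Of 15 genes of alternatively activated macrophages, 5 were called below 0 and 10 were not called, with a median of -0.25.

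Mmp12, the macrophage elastase, ranged from 11.1 to 43.7 CPM (median 27.8) in PBS.AIR, from 716 to 3006 (1505) in HDM.AIR, from 50.7 to 258 in PBS.CS and from 562 to 1709 (872) in HDM.CS. The saline groups did not overlap each other or the HDM groups, and the HDM groups overlapped. HDM gave a fitted 63.2-fold higher level in air and 6.70-fold in smoke, with an interaction of -3.24 ± 0.42 (adjusted p = 1.9e-06). Msr1, a scavenger receptor (-1.98 ± 0.30), Trem2, a lipid receptor of tissue macrophages (-2.01 ± 0.32), Ms4a7 (-1.82 ± 0.22), Pla2g7, which degrades platelet-activating factor (-1.45 ± 0.18), and the prostaglandin D2 synthase gene Hpgds (-1.50 ± 0.19) moved likewise, with adjusted p between 1.1e-06 and 3.9e-05. For Msr1, Trem2 and Hpgds the HDM.AIR and HDM.CS medians were close, at 104.2 and 96.3, 62.3 and 57.7, and 17.2 and 17.1 CPM. The 7 macrophage markers summed to medians of 365 CPM in PBS.AIR, 1235 in HDM.AIR, 651 in PBS.CS and 1062 in HDM.CS, and their part in these results was not tested.

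Spi1, which encodes the myeloid transcription factor PU.1, and 4 genes that the study places downstream of it were all called below 0. The study picked these 4 for the largest HDM fold changes in both tissues. Of the genes that HDM raised at 3 weeks, 49.8% were called below 0 and 2006 of 2120 had a value below 0. Whether the Spi1 set departs from other genes raised by HDM was not tested. Spi1 itself ranged from 11.1 to 33.2 CPM (median 19) in PBS.AIR, from 46.7 to 87 (60.8) in HDM.AIR, from 14.1 to 47.5 (32.6) in PBS.CS and from 31.6 to 73.3 (51.5) in HDM.CS, with overlap between neighbouring groups and an interaction of -0.86 ± 0.27 (adjusted p = 0.027). Spi1 had a fitted HDM difference in air of 1.67 (log2), and the 4 others had 2.7 to 3.62. The 4 other genes also had interactions of larger size, but no test compared them with Spi1. They were Il1rn, the IL-1 receptor antagonist (-2.04 ± 0.43, adjusted p = 0.00097), Itgax, the integrin CD11c (-1.42 ± 0.35, adjusted p = 0.0041), Clec7a, the beta-glucan receptor dectin-1 (-1.40 ± 0.40, adjusted p = 0.012), and Ptafr, the platelet-activating factor receptor (-1.14 ± 0.24, adjusted p = 0.0011). With the cardiac level as a covariate, Spi1 (-0.45) and Clec7a (-0.73) were no longer called. Of 12 C-type lectin receptor and SYK-CARD9 genes, 8 were called below 0 (10.0% of all genes were), including Clec4d (-2.07 ± 0.33) and Malt1 (-1.07 ± 0.17).

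Complement and protease genes followed the same direction. Of 17 complement genes, 9 were called below 0, among them the C3a receptor gene C3ar1 (-1.36 ± 0.24, adjusted p = 0.00014) and C3 (-0.85 ± 0.17, adjusted p = 0.00049). Of 18 matrix proteases and inhibitors, 8 were called below 0 and Timp3 (0.62) above 0. The IL-1 list had 8 of 14 called below 0 and the neutrophil granule list 6 of 13 (3 of these 13 by edgeR and 4 by DESeq2). Of all genes tested, 10.0% were called below 0 and 5.98% above 0. The NRF2 antioxidant list had calls in both directions, 6 below and 2 above 0 of 22, with a median of -0.09. In the NRF2 list, Slc7a11, the cystine transporter, was lowest (-2.29 ± 0.36, adjusted p = 3.3e-05), whereas Nqo1 (0.36) and Gclc (-0.33) were not called.

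Genes of antigen presentation had smoke differences near 0 in PBS and below 0 in HDM. Of 12 genes of MHC class II presentation, 11 were called below 0, against 10.0% of all genes tested. The list had a median HDM difference of 1.57 in air and 0.70 in smoke. Its median smoke difference was 0.01 in PBS and -0.90 in HDM. Cd74, the invariant chain, ranged from 648 to 884 CPM (median 769) in PBS.AIR, from 2165 to 4354 (2602) in HDM.AIR, from 533 to 1028 (810) in PBS.CS and from 1210 to 1660 (1296) in HDM.CS. The saline groups overlapped, and HDM.CS lay wholly between them and HDM.AIR, with an interaction of -1.02 ± 0.17 (adjusted p = 5.7e-05). Ciita, the regulator of these genes, had an interaction of -0.96 ± 0.19 (adjusted p = 0.00044). B cells also express MHC class II, and their markers summed to between 97 and 424.4 CPM in PBS.AIR, 313.5 and 670.3 in HDM.AIR, 83.2 and 309.1 in PBS.CS and 163.2 and 516.9 in HDM.CS. Their part in these results was not tested.

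The antibody list had the largest median HDM difference in air of the 43 lists of genes examined (4.93). Igha, the IgA heavy chain, ranged from 63.4 to 192.3 CPM (median 96.5) in PBS.AIR, from 2072 to 4455 (3656) in HDM.AIR, from 160.5 to 842 (206) in PBS.CS and from 575 to 2587 (1422) in HDM.CS, with an interaction of -2.70 ± 0.40 (adjusted p = 1.5e-05). Ighg1, the IgG1 heavy chain, had medians of 13.8, 17972, 76.1 and 6810 CPM, and an interaction of -3.99 ± 0.96 (adjusted p = 0.0034). Of 10 heavy and light chain constant genes, 4 were called below 0 by limma-voom (10.0% of all genes were), and 6 were called by edgeR and 6 by DESeq2. All 10 had values below 0, with a median of -2.15. Ighm (-0.97), Ighd (-0.33) and Ighe (-1.45) were not called by limma-voom. Of 19 B cell and plasma cell genes 12 were called below 0, including Pigr, which carries IgA across epithelium (-1.22 ± 0.22, adjusted p = 0.00022), and Xbp1 (-0.62 ± 0.12, adjusted p = 0.00065). Edem1, which clears misfolded proteins from the endoplasmic reticulum, had an interaction of -0.99 ± 0.12 (adjusted p = 1.3e-06). The 7 plasma cell markers summed to medians of 542, 30913, 848 and 12061 CPM in PBS.AIR, HDM.AIR, PBS.CS and HDM.CS, and their part in these results was not tested.

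Of 18 T cell genes, 12 were called below 0 (10.0% of all genes were), with a median of -1.16. The lowest values were in the regulatory T cell factor Foxp3 (-2.11), the inhibitory receptors Pdcd1 (-2.03 ± 0.36, adjusted p = 0.00017) and Tigit (-1.84 ± 0.36, adjusted p = 0.00049), and Ctla4 (-1.67), whereas Cd8a (-1.06), Cd8b1 (-1.05) and Lag3 (-0.87) were not called. Pdcd1 ranged from 0.429 to 3.08 CPM in PBS.AIR, from 7.36 to 19.5 in HDM.AIR, from 0.819 to 3.57 in PBS.CS and from 5.26 to 9.9 in HDM.CS. T cell markers summed to between 50.8 and 284.7 CPM in PBS.AIR, 168.3 and 375.4 in HDM.AIR, 56.3 and 240.6 in PBS.CS and 111.8 and 255.8 in HDM.CS, and their part in these results was not tested. None of 12 cytotoxic lymphocyte genes was called by limma-voom, edgeR or DESeq2, 2 had an unadjusted p under 0.05, and the list median was 0.13.

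All 22 cell cycle and proliferation genes were called below 0, with values from -1.62 to -0.58 and a median of -1.21, against 10.0% of all genes called below 0. Mki67, a marker of dividing cells, ranged from 10.8 to 30.7 CPM (median 19.5) in PBS.AIR, from 72.7 to 122.4 (91.8) in HDM.AIR, from 21 to 37.1 (27.4) in PBS.CS and from 45 to 76.9 (55.7) in HDM.CS. The HDM groups overlapped only between 72.7 and 76.9 CPM, and the interaction was -1.26 ± 0.20 (adjusted p = 3.2e-05). Ccnb1, a mitotic cyclin, had medians of 3.03, 10.6, 4.77 and 5.93 CPM and an interaction of -1.62 ± 0.25 (adjusted p = 3.2e-05).

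Genes above 0 were mostly those that were lower after HDM alone and less so with smoke. Of 22 xenobiotic metabolism enzymes, 11 were called above 0 and the other 11 were not called, with a median HDM difference of -1.25 in air and -0.66 in smoke. Of 20 club cell secretory genes, which share members with that list, 9 were called above 0 and Lyz2 (-0.82) below 0. The shares of all genes called above and below 0 were 5.98% and 10.0%. Cyp2f2, a cytochrome P450 of club cells, ranged from 2659 to 5150 CPM (median 4048) in PBS.AIR, from 533 to 1121 (896) in HDM.AIR, from 1912 to 3243 (2657) in PBS.CS and from 983 to 1656 (1374) in HDM.CS. HDM.CS overlapped the upper end of HDM.AIR and neither saline group, and the interaction was 1.14 ± 0.19 (adjusted p = 7.2e-05). Cyp4b1 (1.06 ± 0.17), Fmo2 (0.95), Aldh1a1 (0.95) and Scgb1a1, the main secretory protein of club cells (0.76 ± 0.25, adjusted p = 0.029), were also called. Gstm1, a glutathione transferase, had medians of 539, 188.2, 572 and 359 CPM and an interaction of 0.86 ± 0.14 (adjusted p = 7.1e-05), although reads of close family members may be shared. The 6 club cell markers summed to medians of 67182, 25164, 52278 and 31644 CPM in PBS.AIR, HDM.AIR, PBS.CS and HDM.CS, and their part in these results was not tested.

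The smallest p of any gene belonged to Upk1a, a uroplakin. It ranged from 2.33 to 3.46 CPM (median 2.92) in PBS.AIR, from 0.25 to 0.719 (0.416) in HDM.AIR, from 0.449 to 1.29 (0.699) in PBS.CS and from 0.36 to 0.784 (0.513) in HDM.CS. The 3 exposed groups overlapped one another and not PBS.AIR, with an interaction of 2.37 ± 0.24 (adjusted p = 6.6e-08). The amino acid transporter gene Slc38a4 was ordered otherwise, from 11.4 to 20 CPM in PBS.AIR, 9.46 to 14.4 in PBS.CS, 6.34 to 15.4 in HDM.CS and 2.57 to 4.88 in HDM.AIR, with an interaction of 1.74 ± 0.19 (adjusted p = 3.5e-07). HDM.AIR alone stood apart for this gene, and smoke in HDM mice was followed by a 2.43-fold higher level. The 6 mesothelial markers summed to medians of 313 CPM in PBS.AIR, 215 in HDM.AIR, 278 in PBS.CS and 261 in HDM.CS. All 6 had values above 0, with a median of 1.01, and 1 was called. The part of mesothelial cells in the Upk1a result was not tested.

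Other genes with the smallest p above 0 had varied roles. They were Kl, the co-receptor klotho (2.18 ± 0.31), Ptprr (1.55 ± 0.22), Klf15, a glucocorticoid-induced transcription factor (1.43 ± 0.22), Cbs, which makes cystathionine (1.30 ± 0.20), Fgfbp1 (1.22 ± 0.18), the kinase gene Bmx (1.16 ± 0.17), the chemokine scavenger gene Ackr3 (1.05 ± 0.13), Palmd (0.94 ± 0.14), Gstk1 (0.82 ± 0.11) and Eml1 (0.68 ± 0.10), with adjusted p from 8.5e-07 to 2.1e-05. The endothelial nitric oxide synthase gene Nos3 had an interaction of 0.91 ± 0.15 (adjusted p = 5.5e-05). The 7 endothelial markers summed to medians of 1947 CPM in PBS.AIR, 970 in HDM.AIR, 1630 in PBS.CS and 1607 in HDM.CS. All 7 had values above 0, with a median of 0.60, and 2 were called (3 by edgeR and 5 by DESeq2). The part of endothelial cells in these results was not tested. Gabrq (2.31 ± 0.56) and Hand2os1 (2.23 ± 0.68), with medians of 2.08 and 1.57 CPM in PBS.AIR, had the next largest values above 0 among called genes at 1 CPM or more in a group, but with the cardiac level as a covariate Hand2os1 (0.99) was no longer called. Of 16 glucocorticoid receptor and target genes, 4 were called above 0, namely Tsc22d3 (0.83), Errfi1 (0.66 ± 0.19), Dusp1 (0.65 ± 0.19) and Klf9 (0.65), while Fkbp5 (-0.04) and Per1 (0.52) were not. Of all genes tested, 5.98% were called above 0.

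Of the 3 largest values below 0 among these genes, 2 came from genes that were nearly silent in PBS.AIR, where a log2 value depends on the offset added to low counts. Awat1, a wax synthase, had at most 5 counts in any PBS.AIR library and an interaction of -4.28 ± 1.25 (adjusted p = 0.016). Rph3a had at most 3 counts there, so no fold is given, and medians of 1.44, 0.564 and 1.43 CPM in HDM.AIR, PBS.CS and HDM.CS. The genes Mab21l3 (-2.91 ± 0.36), Arnt2 (-2.37 ± 0.28), Mmp25 (-1.99 ± 0.25) and Clmp (-1.76 ± 0.20), better expressed, had adjusted p from 5.2e-07 to 1.5e-06.

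Lists of genes used to describe allergic airway disease held calls in both directions. Of 18 type 2 cytokine, alarmin and receptor genes, Ccr4 (-1.08 ± 0.27) and Il9r (-0.99 ± 0.32) were called below 0 and Tslp (0.80 ± 0.27) above 0, shares near those of all genes (10.0% and 5.98%), while Il4 (0.44 ± 0.46), Il13 (-0.35 ± 0.93) and Il33 (-0.46 ± 0.21) were not, with mean levels of Il4 and Il13 at 0.602 and 0.355 CPM or less in every group. The eotaxins Ccl11 (0.16 ± 0.55) and Ccl24 (0.30 ± 0.47) and the granule protein gene Prg2 (-0.40 ± 0.49) were not called. Ear1, an eosinophil-associated ribonuclease with close copies, was called above 0 (1.47 ± 0.49, adjusted p = 0.035) by limma-voom but by neither edgeR nor DESeq2. Of 18 goblet cell genes, Slc26a4, the anion exchanger pendrin (-3.50 ± 0.52, adjusted p = 1.8e-05), Gp2 (-2.34 ± 0.55, adjusted p = 0.0027) and Creb3l1 (-0.56) were called below 0. Chil1, a chitinase-like protein, had means of 543.1, 2213, 1609 and 2093 CPM and an interaction of -1.66 ± 0.29 (adjusted p = 0.00012). The mucin gene Muc5ac had means of 11.6, 62.2, 7.05 and 35.6 CPM and an interaction of -0.58 ± 0.70, with an error larger than its value.

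Several structural and metabolic lists held no call. No gene of the lists of 15 smooth muscle contractile genes, 22 oxidative phosphorylation genes or 14 basal and squamous genes was called by limma-voom, edgeR or DESeq2, and 3, 1 and 1 of them had an unadjusted p under 0.05. All 15 smooth muscle estimates were nevertheless above 0, with a median of 0.70, while those of oxidative phosphorylation were 8 below and 14 above 0. The 7 smooth muscle markers summed to medians of 1202 CPM in PBS.AIR, 430 in HDM.AIR, 1105 in PBS.CS and 604 in HDM.CS. One ciliary gene of 16, Cfap43 (0.53 ± 0.16), was called, but not with the cardiac level as a covariate (0.32). All 16 ciliary estimates were above 0, with a median of 0.50. Of 16 collagen genes, Col24a1 (-1.63 ± 0.43) was called below 0 and Col8a1 (1.01 ± 0.19) above 0, with 1 more in each direction. Among 9 genes of the aryl hydrocarbon receptor pathway, which responds to components of smoke, only Cyp1b1 was called (-0.73 ± 0.18, adjusted p = 0.0049), with medians of 23.3, 34.8, 61.5 and 52.8 CPM. Cyp1a1 had means of 5.96, 1.82, 67.6 and 76.7 CPM and an interaction of 2.21 ± 1.02 that was not called (adjusted p = 0.14). Of 22 type I interferon response genes, Zbp1 (-1.09 ± 0.33) and Oas1a (-0.73 ± 0.23) were called, the latter by neither edgeR nor DESeq2. Of all genes tested, 5.98% were called above 0 and 10.0% below 0. The shares of the ciliary, aryl hydrocarbon receptor and interferon lists lay near these, and the collagen counts are small.

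**Figure D3:**
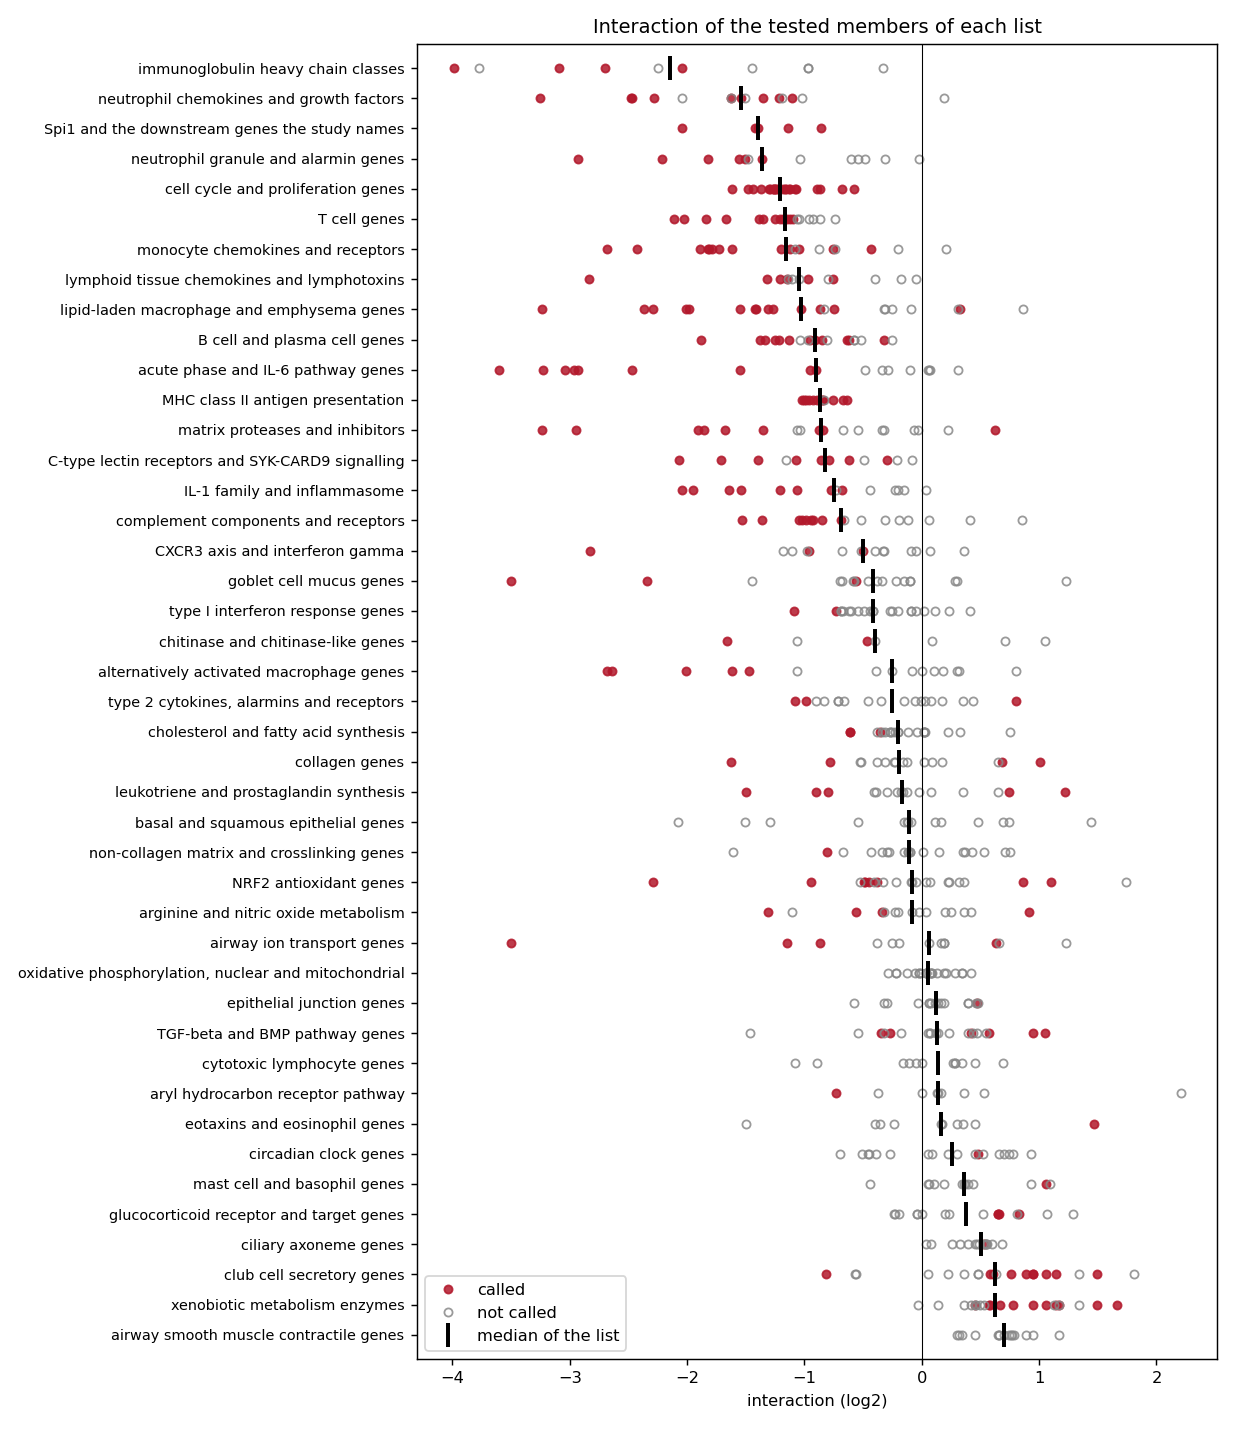
Interaction (x axis, log2) of every tested member of 43 lists of genes (y axis), filled where called, with the list median as a black tick. Cell cycle, MHC class II, chemokine and antibody lists lie left of 0, and the club cell, xenobiotic and smooth muscle lists lie right of 0.

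The same interaction was fitted in 40 other airway libraries, from mice that had the same 4 exposures and were given DEX, a glucocorticoid. There 442 of 17446 genes were called, 0.711% above 0 and 1.82% below 0. Of the genes called without DEX, 959 of 1046 above 0 (91.7%) and 1571 of 1741 below 0 (90.2%) had the same sign under DEX, against 71.1% of all genes, and 83 and 260 of them were also called. Their median interactions under DEX were 0.24 and -0.31. The genes were chosen on the libraries without DEX, so these medians are not compared with the values there. A test of the difference between both sets of libraries called 0 of 18015 genes (0%) by limma-voom and 0 by edgeR, with 1150 and 1181 genes at an unadjusted p under 0.05, which does not show that the interactions were equal.

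Individual genes under DEX held different values. Pla2g7 (-1.21, adjusted p = 5e-06), Mab21l3 (-2.85, adjusted p = 2e-05), Slc7a11 (-2.06, adjusted p = 2.8e-05), Mmp12 (-2.74, adjusted p = 5.1e-05), Vnn1 (-2.89, adjusted p = 5e-06) and Pdcd1 (-2.22, adjusted p = 0.0023) were called there too. Ccl22 (-0.64), Il12b (-0.26), Ccnb1 (0.22), Mki67 (-0.55), Klf15 (-0.04), Gstm1 (-0.02) and Il6 (0.48) were not, and for none of these 7 did the difference between the sets pass the threshold. With rounds of library codes as a block, Klf15 alone passed, with a difference of 1.49 ± 0.25 (adjusted p = 0.0025).

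In the parenchyma of mice with the same exposures, 3466 genes were called above 0 and 3738 below 0 of 16821 (20.6% and 22.2%). Of the airway genes called, 997 of 1031 above 0 and 1735 of 1743 below 0 had the same sign in parenchyma (96.7% and 99.5%, against 78.1% of all genes), and 844 and 1587 were called there. Whether both tissues came from the same mice is not given, so this is no independent repeat. The airway value less the parenchyma value was called above 0 for 35 genes and below 0 for 2 of 17837 (0.196% and 0.0112%). Pigr had an interaction of -1.22 in airway and -3.48 in parenchyma, a difference of 2.23 ± 0.35 (adjusted p = 0.00018), and C3 of -0.85 and -2.12, a difference of 1.25 ± 0.22 (adjusted p = 0.00067). Cd14 (1.83), Ccl20 (2.32) and Cfb (2.21), named after their values were seen, were called in the same direction. For these 5 innate and mucosal defence genes the departure from additivity was called larger in parenchyma than in airways.

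**Figure D4:**
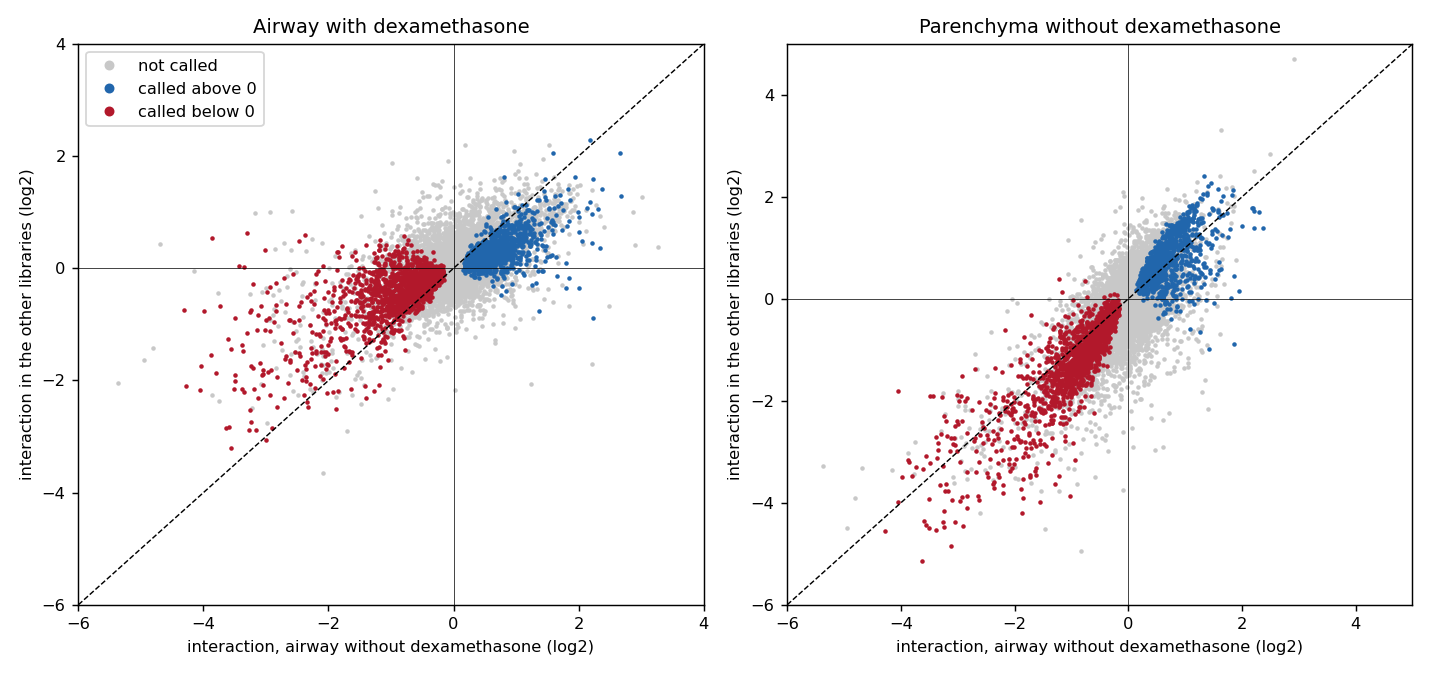
Interaction in airways without DEX (x axis, log2) against that in airways with DEX (left) and in parenchyma without DEX (right) on the y axes, with 1 point per gene and the dashed line at equal values. Genes called in airways without DEX (coloured) mostly keep their sign in both panels.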

How the data were processed

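Airways and parenchyma were sequenced in bulk. The authors deposited estimated counts per gene, not normalized for library size, after bcl2fastq, STAR, RSEM and kallisto on mm10, per the labels, and which quantifier made the table and its strand setting are not given in the sources used here. In it 20.3% of non-zero values were not whole, and values were rounded. The methods name GENCODE M21, yet 23106 of 43346 identifiers carry its versions, so 42462 were matched without version.

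The 40 airway libraries without DEX were fitted in R 4.3.3 with limma 3.58.1 (voom) and TMM factors from edgeR 4.0.16, after a filter of 0.338 CPM (10 counts in the median library) in 9 libraries, and p-values were adjusted by Benjamini-Hochberg. CPM values are TMM-scaled. The smallest chi-square per degree of freedom between 2 libraries of a group was 14.4, so no such pair differed by sampling noise alone. Pairs across groups were not compared, and the check cannot show whether 2 libraries came from 1 mouse. The fit was tested on simulated counts. Alternatives were edgeR, DESeq2 1.42.0, other scalings, filters, weights, libraries, covariates and rounds of library codes as a block.

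The 94 genes named by rule were, among called genes at 1 CPM or more in a group, the 12 smallest p and 3 largest values in each direction, up to 2 per function list, and 5 genes the study names. Genes beyond these are list members, of which 1 is not reported here. The comparison, the members and the lists were chosen with earlier results of these data known.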

Additional observations from a re-analysis of the deposited data

Results flagged for a closer look

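In 17 of 376 combinations of a named gene and a group, the highest or lowest of the 10 libraries lay apart from the rest on log2 CPM by Dixon's criterion, which chance alone meets in about 1 of 20 groups. Each is given by replicate with its CPM. In PBS.AIR these were Fgfbp1 in replicate 1 (57.8), Igkc in replicate 4 (676), Gstk1 (37.1) and Vnn1 (9.26) in replicate 7 and Slc26a4 in replicate 8 (0.975). In HDM.AIR they were Kcnn4 in replicate 3 (11.2), Gabrq in replicate 5 (0), and Vnn1 (140.1), Cd74 (4354) and Cfap43 (49.4) in replicate 6. In PBS.CS they were Upk1a (1.29) and Cbs (7.97) in replicate 2, C3 in replicate 5 (839), Nos3 in replicate 7 (23.7) and Igha in replicate 9 (842). In HDM.CS they were Oas1a in replicate 2 (41.1) and Gstk1 in replicate 5 (34.1).

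The interaction of Pigr (2.23) and of C3 (1.25) differed between airway and parenchyma by a test of the difference itself.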

How the results depend on the processing

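Counts of genes called above and below 0 were 1049 and 1761, and ran from 860 to 1315 and from 1491 to 1836 when 1 of the 40 libraries was left out. They stayed within 1.5 times under the alternatives run except these. With alveolar type II and adipose markers as covariates, chosen after seeing the data, 1870 were above 0. An absolute log2 limit of 1 left 757 of the 2810. The airway less parenchyma difference was called in 0.207% of genes by limma-voom and 0.774% by edgeR. No named gene reversed. Calls were lost without 1 library for Il9r (PBS.AIR replicate 2 or PBS.CS replicate 6), Oas1a (PBS.AIR replicate 2), Ear1 (any of 8 libraries) and Tgfbr1 (any of 9), and with the cardiac covariate for Hand2os1, Awat1, Cfap43, Dhcr7, Tgfbr1, Spi1 and Clec7a. Counts of many lists differed by tool, for example type 2 (3 called, 5 by DESeq2), goblet cell (3 and 5) and chitinase genes (2, and 4 by edgeR and by DESeq2). Others were neutrophil chemokines (9, and 12 by DESeq2), lymphoid tissue chemokines (6, 4 by edgeR and 5 by DESeq2) and type I interferon genes (2, and 1 by each). Genes near the floor of counts, such as Rph3a and Awat1, are limited by depth.

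The labels give no replicate numbers, but the codes in the titles run in 10 rounds that each hold 1 library of every group at 11 weeks. Deviations of same-round libraries from their group means had a median correlation of 0.17 over 60 pairs, from -0.30 to 0.58, and 39 of them were over 0.1, against a median of -0.02 between rounds. Of the 40 libraries, 13 correlated best with their own round, so the pairing is a hint from the data only. A fit with the rounds as a replicate block, chosen after seeing the data, called 1555 genes above 0 and 2022 below 0, kept 2756 of the 2810 calls and lost none of the 94 named genes. It called 750 genes under DEX in place of 442, 1 (Klf15) in place of 0 for the difference from DEX, and 0.499% for airway less parenchyma.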
